A study of Mus musculus with 18 samples.

Results

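The baseline miRNA content of control mouse kidney was described from 6 control libraries of a series of 18. The members were the 735 mouse miRNA names that stood on 814 of the 1534 entries of the deposited count table, with 1 entry kept per name. Each name was scaled to CPM, its counts per 1000000 counts of these kept names in its library. Control mice were of the C57BL/6J strain and received 0.9% saline, with kidney as the labelled tissue, and the 12 other libraries, from a diabetic nephropathy group and a group treated with germacrone, were not used. Whether the 6 libraries are 6 animals is not in the labels, so every spread and p-value below is one between libraries, which may be technical. Libraries held 2994112 to 5544192 counts over the kept names, and 3700672 to 6654035 over every entry. Control 2 stood apart from the other libraries in 46 of 201 names of at least 100 CPM, and control 4 held the highest levels of several markers of muscle and nerve, so values without control 2 or control 4 are given where a statement rests on them. No group was compared with another.

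A miRNA is a short RNA cut from a hairpin by Drosha and Dicer, and one strand of the duplex is loaded into an Argonaute protein, which it guides to messenger RNAs. The seed near the 5′ end pairs with the target, so miRNAs with the same seed are grouped as a family with overlapping targets. The strand from the left side of the hairpin is called the 5p arm and that from the right side the 3p arm, and usually one of them builds up. In kidney, members of the miR-30, miR-10, miR-192, miR-194, miR-200 and let-7 groups are known for their abundance in tubular epithelium, miR-30 also for its part in podocytes, miR-126a for endothelium, and miR-143 with miR-145a for smooth muscle and pericytes. In bulk tissue, fewer cells of a type and less RNA per cell cannot be told apart.

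The mature sequences of leading members are shown to make visible which names share a seed and how little separates some of them. They are RefSeq sequences on the GRCm38.p6 assembly, written 5′ to 3′ with the seed, bases 2 to 8, in capitals. RefSeq sequences were matched for 582 of the 735 names, which held 83.2% of the mean CPM.
miR-30a-5p: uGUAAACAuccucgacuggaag
miR-30c-5p: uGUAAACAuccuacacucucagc
miR-30e-5p: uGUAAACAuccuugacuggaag
let-7a-5p: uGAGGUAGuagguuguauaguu
let-7c-5p: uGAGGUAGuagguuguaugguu
let-7b-5p: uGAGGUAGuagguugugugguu
let-7f-5p: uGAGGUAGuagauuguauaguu
let-7g-5p: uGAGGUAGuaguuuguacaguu
miR-10a-5p: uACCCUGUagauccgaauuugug
miR-10b-5p: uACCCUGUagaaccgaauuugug
miR-99a-5p: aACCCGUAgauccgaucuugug
miR-100-5p: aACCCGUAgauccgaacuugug
miR-26a-5p: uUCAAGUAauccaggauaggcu
miR-21a-5p: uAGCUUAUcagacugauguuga
miR-29a-3p: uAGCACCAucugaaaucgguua
miR-192-5p: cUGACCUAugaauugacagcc
miR-200a-3p: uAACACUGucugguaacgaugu
miR-200b-3p: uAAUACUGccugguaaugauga

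The next 4 sequences are shown for results on arms and on base composition: both arms of the miR-322 hairpin, whose higher arm differed between libraries, and the AU-rich miR-190a-5p beside the GC-rich miR-744-5p.
miR-322-5p: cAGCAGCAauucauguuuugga
miR-322-3p: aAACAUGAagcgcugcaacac
miR-190a-5p: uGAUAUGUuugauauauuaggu
miR-744-5p: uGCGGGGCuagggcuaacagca

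On GRCm38, miR-30a-5p lies at chr1:23272274-23272295, plus strand, outside any other gene of the GENCODE M21 annotation. The sequence of miR-30c-5p is encoded at 2 places, chr1:23291714-23291736 on the plus strand and chr4:120769584-120769606 on the minus strand. The second lies in an intron of Nfyc, as does miR-30e-5p at chr4:120772660-120772681, minus strand. The sequence of miR-26a-5p is encoded at chr9:119031811-119031832 in an intron of Ctdspl and at chr10:126995543-126995564 in an intron of Ctdsp2, both on the plus strand. The miR-10b-5p sequence, at chr2:74726074-74726096 on the plus strand, lies in introns of Hoxd3 and Hoxd4, and miR-10a-5p, at chr11:96317186-96317208 on the plus strand, outside any other annotated gene. The mature miR-21a-5p, at chr11:86584120-86584141 on the minus strand, overlaps an annotated exon of Vmp1. The let-7c-5p sequence is encoded at chr15:85706616-85706637, in an exon of the noncoding gene Lncppara, and at chr16:77599672-77599693, in an intron of the noncoding gene Mir99ahg, which also holds miR-99a-5p at chr16:77598940-77598961, all on the plus strand. The miR-322 hairpin lies on the minus strand of chromosome X, outside any other annotated gene, with the 5p arm at chrX:53054306-53054327 and the 3p arm at chrX:53054269-53054289. The miR-190a-5p sequence lies at chr9:67236700-67236721 in an intron of Tln2, and miR-744-5p at chr11:65734799-65734820 in an intron of Map2k4, both on the minus strand.

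Reads of control kidney were held by few miRNAs. The 10 leading names of a library took 42.2% ± 2.08 of its reads (SD, n = 6), the 20 leading names 65.5% ± 1.77, and the 50 leading names 89.6% ± 0.963. Between 12 and 14 names held 50% of the reads of a library, between 47 and 55 names held 90%, and 157 to 174 names held 99%. The number of names with at least 1 count was 490 to 573 per library, with 417 names counted in all 6 libraries and 87 in none. A mean of at least 10 CPM was reached by 343 names, of at least 1000 CPM by 81 and of at least 10000 CPM by 29.

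The most abundant name was miR-30a-5p, a member of the family best known in kidney for podocyte and tubular maintenance. Its level was 59832 CPM in the lowest library, 68964 at the median and 81431 in the highest, with a mean of 70049 ± 8335 CPM (SD, n = 6). It came first in controls 1, 2, 3, 5 and 6, and in control 4 the smooth muscle miRNA miR-143-3p came first at 67058 CPM. The library with the second-highest level of miR-143-3p was control 1 at 50535 CPM, and the lowest was control 2 at 27617 CPM.

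Below miR-30a-5p lay 5 names with means between 40310 and 43135 CPM: miR-30d-5p, miR-30c-5p, miR-143-3p, miR-30e-5p and miR-21a-5p. Their order was not fixed. The level of miR-30d-5p was 32713, 76760, 49132, 29152, 43886 and 27166 CPM in controls 1 to 6. Control 2 stood highest, and controls 4 and 6 lowest. The level of miR-21a-5p, an injury-responsive miRNA, was 53337, 16892, 27989, 50477, 33516 and 59649 CPM in the same order. Here control 2 was lowest and control 6 highest, so the 2 names ran in nearly opposite order over the libraries. In contrast, miR-30c-5p ranged only from 35514 to 51356 CPM, with a median of 42778, and miR-30e-5p from 34062 to 49718 CPM, with a median of 38703. Without control 2 the mean of miR-30d-5p was 36410 ± 9611 CPM (SD, n = 5), and miR-143-3p at 45508 ± 14954 and miR-21a-5p at 44994 ± 13559 CPM stood above it.

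Then came miR-10a-5p, encoded beside the Hox genes, at 35802 ± 5710 CPM, and miR-26a-5p, from introns of the Ctdsp phosphatase genes, at 32632 ± 1662 CPM (SD, n = 6 throughout). The let-7 names, whose family represses growth and proliferation genes, followed at 28173 to 30201 CPM for let-7a-5p, let-7c-5p, let-7b-5p, let-7f-5p and let-7g-5p. The collagen-repressing miR-29a-3p stood at 27496 ± 1232 CPM. Ranks 15 to 20 were miR-200a-3p at 23957 ± 6210, miR-10b-5p at 23759 ± 2403, miR-192-5p at 23346 ± 6804, miR-378a-3p at 20856 ± 4336, miR-27b-3p at 19859 ± 2613 and miR-200b-3p at 18804 ± 2411 CPM. Among the 19 neighbouring pairs of the 20 leading names, 1 pair, miR-30a-5p over miR-30d-5p, kept its order in 6 of 6 libraries, 1 pair was equal in all 6, and 17 pairs changed order in at least 1 library. The set was steadier than the order: 16 of the 20 were among the 20 leading names of every library, and 24 names were so in at least 1 library.

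**Figure D1:**
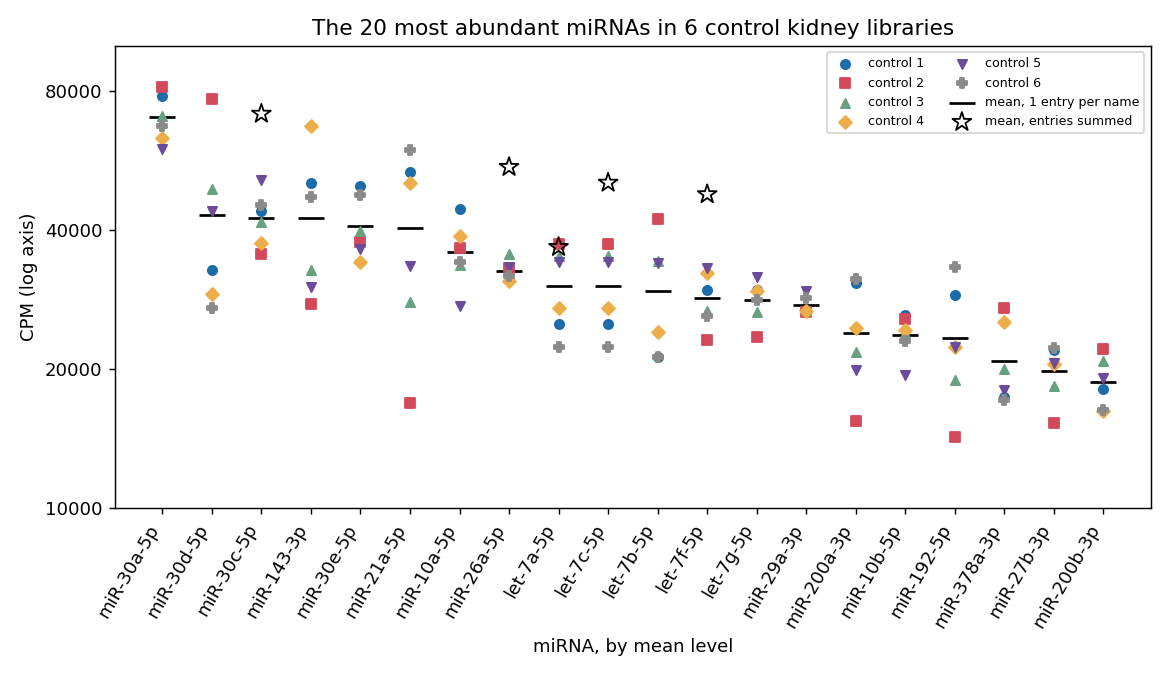
Level of the 20 most abundant miRNA names in CPM (log axis) in each control library, with the mean as a bar and, for 5 names on more than 1 entry of the table, the mean after summing their entries as a star. In the plot, miR-30a-5p leads at 70049 CPM, miR-30d-5p and miR-21a-5p spread widest with control 2 at opposite ends, and the star of miR-30c-5p lies above miR-30a-5p.

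The order depended on how names with several entries were read. In the table, 53 names stood on more than 1 entry, and 47 of these had the same values on every entry in every control library. Of the 34 that have a RefSeq sequence, 30 had as many RefSeq hairpins as entries. Values were whole in 89.2% of those above 0 for names on 1 entry, within a tolerance of 0.001. For the 32 names on 2 entries of equal values 36.6% were whole, and 72.6% after multiplying by the number of entries. The 6 names whose entries differed, among them let-7a-5p, were left out of these shares. For names on 3 entries these shares were 25% and 93.8%, and for names on 4 entries 17.4% and 100%. The sources used here do not give how reads were assigned to such entries.

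With the entries of a name summed and the totals recomputed, miR-30c-5p rose from rank 3 to rank 1 at 71341 CPM and miR-30a-5p stood second at 58799 CPM. In that reading miR-30c-5p came first in 5 of 6 libraries, all but control 2. The sum moved miR-26a-5p to rank 3 at 54735 CPM, let-7c-5p to rank 4 at 50613, let-7f-5p to rank 5 at 47788 and let-7a-5p to rank 6 at 36752 CPM. The tubular miR-194-5p moved from rank 35 at 7595 CPM to rank 25 at 12745 CPM. The same 20 names held the first 20 ranks in both readings. Names on more than 1 entry held 21.5% of the reads in the 1-entry reading, so values for them are given both ways below where they decide a statement.

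Some different names carried identical values in every control library. The values of let-7a-5p and let-7c-5p were equal, 30201 ± 6157 CPM each, although their sequences differ by A19G, counted from 1 at the 5′ end, let-7a-5p first. The same held for miR-100-5p and miR-99a-5p, at 12074 CPM each, which differ by A16U with miR-100-5p first. It held as well for miR-199a-5p and miR-199b-5p at 745 CPM and for miR-450a-1-3p and miR-450b-3p at 26.9 CPM. The levels of these pairs cannot be told apart in this table, and each name is given with the value it carries. For let-7a-5p, whose 2 entries differed, the entry of higher summed count was kept. Its level, rank and family share and its equality with let-7c-5p rest on that choice. Family and seed totals below add both names of a pair where both are members. Whether such a pair stands for the same reads is not in the sources used here.

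The miR-30 family held the largest share of reads of the 24 families described, 20.9% ± 1.96, ranging from 17.7% in control 4 to 23.8% in control 2. It is known for restraining Notch signalling and other injury programmes in podocytes and tubules. Within it, miR-30a-5p made up 33.6% ± 2.45 of the family's reads, miR-30c-5p 20.6% ± 3.34, miR-30d-5p 20.3% ± 6.99, miR-30e-5p 19.7% ± 2.98 and miR-30b-5p 5.88% ± 1.93. The share of miR-30d-5p ranged from 13.4% to 32.3% and that of miR-30a-5p only from 29.2% to 35.9%. The family total therefore varied less, with a coefficient of variation (CV, SD over mean) of 9.39%, than its member miR-30d-5p with 43.1%, or 26.4% without control 2. Without control 2 the family held 20.3% ± 1.51 (SD, n = 5). With entries summed the family held 21.1% ± 1.62.

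The let-7 and miR-98 family, regulated by Lin28 during development, held 17.0% ± 2.19 of the reads, from 13.9% in control 6 to 19.3% in control 5. With entries summed it held 20.3% ± 2.38. Both shares add let-7a-5p and let-7c-5p, whose kept values are identical, so reads listed under both names would count in both. The names let-7a-5p, let-7c-5p, let-7b-5p, let-7f-5p and let-7g-5p each made up between 16.9% and 17.7% of the family on average, let-7d-5p 5.62%, let-7i-5p 5.12%, let-7e-5p 2.10% and miR-98-5p 0.849%. The balance between let-7b-5p and let-7f-5p changed between libraries. The level of let-7b-5p was 21248, 42297, 34293, 24067, 33907 and 21211 CPM in controls 1 to 6, and that of let-7f-5p 29715, 23152, 26672, 32343, 33082 and 26010 CPM. Control 2 was thus the highest library for let-7b-5p and the lowest for let-7f-5p. The GC content of the 2 sequences shown above is 45.5% and 31.8%. Other members with equal GC content differed in control 2. Both let-7a-5p and let-7g-5p have 36.4% GC, and control 2 was highest for let-7a-5p at 37385 CPM and lowest for let-7g-5p at 23456 CPM. The kept values of let-7a-5p equal those of let-7c-5p, at 40.9% GC.

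The miR-10 family held 5.96% ± 0.793 of the reads, or 5.00% ± 0.707 with entries summed. Of its reads, 59.9% ± 1.86 were miR-10a-5p and the rest miR-10b-5p. The share of miR-10a-5p ranged from 58.4% to 62.9% over the libraries. The miR-26 family held 4.90% ± 0.402, or 6.84% ± 0.334 with entries summed, with miR-26a-5p at 67.0% ± 6.80 of it. With entries summed the miR-26 family thus stood above the miR-10 family. The miR-200 family, which maintains the epithelial state by repressing Zeb1 and Zeb2, held 4.85% ± 0.442. Its members miR-200a-3p and miR-200b-3p, from 1 cluster, made up 48.8% ± 8.70 and 39.3% ± 7.75 of it, miR-429-3p 6.91%, miR-200c-3p 4.43% and miR-141-3p 0.519%. The cluster of miR-200a, miR-200b and miR-429 therefore held 4.65% ± 0.504 of the reads and that of miR-200c and miR-141 0.234% ± 0.0727.

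The miR-99 and miR-100 family held 3.23% ± 0.599, miR-29 2.91% ± 0.158, miR-23 2.75% ± 0.460, miR-27 2.55% ± 0.264, miR-192 and miR-215 2.33% ± 0.680 and miR-378 2.22% ± 0.455. Nearly all of the miR-29 family was miR-29a-3p, at 94.7% ± 1.47, with miR-29c-3p at 3.34% and miR-29b-3p at 1.99%. Nearly all of the miR-192 and miR-215 family was miR-192-5p, while miR-215-5p, which shares its seed, had a mean of 0.970 CPM and at most 1.92 CPM in a library. The clusters of miR-192 and miR-194, expressed in proximal tubule and gut epithelium, held 3.12% ± 0.821 in all. The growth-promoting miR-17 family held 0.602% ± 0.0307 and had the lowest CV of the families, 5.10%. The 24 families together, 85 names in all, held 75.6% ± 2.34 of the reads.

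**Figure D2:**
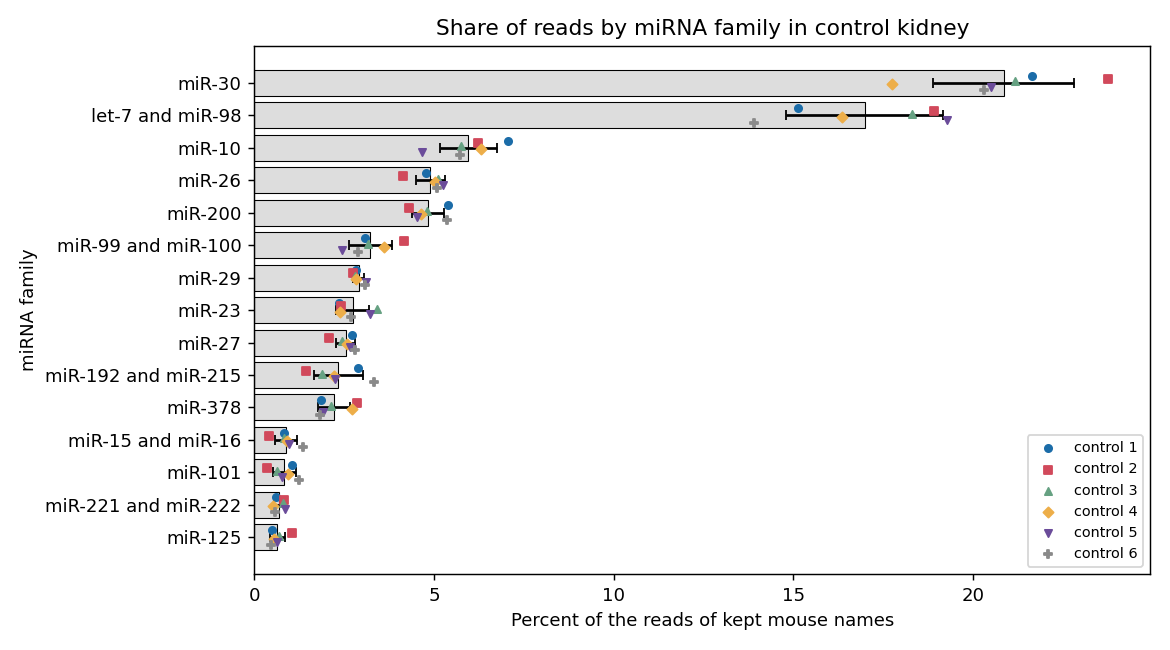
Share of the reads of kept mouse names held by 15 miRNA families, as mean (bar), SD over 6 control libraries (error bar) and the value of each library (points). The miR-30 family at 20.9% and the let-7 family at 17.0% stand apart from the miR-10 family at 5.96% and all others.

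Lists of miRNAs known from particular cell types and organs were read as a description. They were chosen with earlier results of these data known, so their shares cannot serve as a check of the tissue. All 13 names of the kidney-enriched list were in the table and together held 30.9% ± 2.41 of the reads, from 27.6% to 34.0%, with miR-30a-5p, miR-30d-5p, miR-30c-5p, miR-30e-5p and miR-10a-5p as the leading members. The tubular miR-194-5p had 7595 ± 1482 CPM and miR-204-5p 595 ± 137 CPM, while miR-215-5p, also on the kidney-enriched list, had a mean of 0.970 CPM. The smooth muscle and pericyte list, miR-143 and miR-145a with both arms, held 4.96% ± 1.45, from 3.51% in control 2 to 7.36% in control 4. The endothelial miR-126a arms held 2.36% ± 0.675, from 1.22% in control 2 to 3.03% in control 6, and 2.59% ± 0.423 without control 2 (SD, n = 5).

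Markers of blood and of other organs were lower. The leukocyte list held 0.496% ± 0.0667, of which miR-146a-5p made up 60.8% ± 6.86, miR-342-3p 10.2%, miR-142a-5p 7.73% and miR-150-5p 6.42%. The red blood cell list held 0.419% ± 0.0977, of which 81.6% ± 7.61 was miR-451a, an erythroid miRNA made without Dicer, at 1609 to 4277 CPM. The fibroblast and mesenchymal list, miR-199a and miR-214, held 0.322% ± 0.0322, or 0.664% ± 0.103 with entries summed. The nerve, adrenal and islet list held 0.0700% to 0.167%, striated muscle 0.0104% to 0.0387%, and liver, through miR-122-5p alone, 0.00101% to 0.00631%. In the table were 9 of 9 names of the leukocyte list, 5 of 6 of the red blood cell list, 11 of 12 of the nerve, adrenal and islet list, 6 of 7 of the striated muscle list and 1 of 2 of the liver list. Some of their defining members were near 0, with means of 0.278 CPM for the cardiac miR-208a-3p and 1.09 CPM for the neuronal miR-137-3p, while miR-1a-3p had 102 CPM and miR-9-5p 153 CPM. Without control 4 these means were 64.6 and 121 CPM, and with entries summed over all 6 libraries 171 and 386 CPM.

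Control 4 had the highest level of several of these markers. The neuronal miR-124-3p had 1.28, 13.3, 0.940, 408, 11.9 and 57.3 CPM in controls 1 to 6, and 408 CPM in control 4 was 7.11 times the next library. The neuronal miR-9-5p had 316 CPM in control 4 against 105 to 130 CPM in the other 5, and the heart and skeletal muscle miRNA miR-1a-3p 288 CPM against 49.5 to 84.8 CPM. Among names with a mean of at least 1 CPM, control 4 was the highest library for 21.2% of 504. That mean includes control 4, so a name near 1 CPM can enter the counts through its level there. An example is miR-7b-5p at 1.24 ± 3.04 CPM (SD, n = 6). In the striated muscle list control 4 was highest for 5 of 5 names and in the nerve, adrenal and islet list for 9 of 11. In the imprinted Dlk1-Dio3 cluster, which is transcribed from the maternal chromosome, it was highest for 27 of 34. With totals scaled by the trimmed mean of M values (TMM) these counts were 5, 9 and 26, and with totals scaled by relative log expression (RLE) 5, 8 and 26. Without control 4 the striated muscle list held 0.0104% to 0.0119% of the reads and the nerve, adrenal and islet list 0.0700% to 0.0923%. The Dlk1-Dio3 cluster held 0.0604% ± 0.0370 of the reads, from 0.0299% in control 3 to 0.127% in control 4, and 0.0472% ± 0.0200 without control 4 (SD, n = 5). Its leading member miR-127-3p had 144 to 488 CPM. The part of other tissue in these levels was not tested.

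Control 6 was highest for 20.6% of the 504 names, or 14.5% with TMM and 22.2% with RLE totals. It was highest for 6 of 6 members of the miR-15 and miR-16 family, which acts on cell cycle and survival genes, under all 3 scalings. The family held 0.426% of the reads in control 2 and 1.37% in control 6, with 0.829% to 0.976% in the other 4 libraries. Its leading member miR-16-5p had 2452 CPM in control 2, a median of 5169 and 7883 CPM in control 6. In the same way control 2 was highest for 32.5% of names and for 3 of 3 members of the miR-125 family, which held 1.04% of the reads there and 0.469% to 0.693% elsewhere.

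Arms of a hairpin were compared within each library, so that depth cancels, as the log2 of the 5p over the 3p count with 0.5 added to each. Of 197 hairpins with both arms named, 175 had at least 10 counts on average over both arms and were tested with an exact 2-sided sign-flip permutation test over the 6 libraries. The smallest p that 6 libraries allow is 0.03125, which became 0.0355 after Benjamini-Hochberg adjustment over the 175 hairpins. The 5p arm was higher in 89 hairpins (50.9%) and the 3p arm in 65 (37.1%), 154 of 175 together (88%), each in 6 of 6 libraries. The other 21 did not pass. The names let-7a, let-7c, let-7f, miR-26a and miR-30c carry minor arms named by hairpin copy and were not paired.

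Most abundant hairpins were one-sided. Among the 58 with at least 1000 CPM over both arms, 30 passed with the 5p arm higher, 27 with the 3p arm higher and 1 did not pass. The median of the absolute log2 ratio was 6.98, and the median SD between libraries was 0.52. A ratio above 10-fold was seen in 49 of the 58 and one under 4-fold in 6.

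Within the miR-30 family the arm ratios differed between members. The 5p arm of miR-30a had 70049 ± 8335 CPM and the 3p arm 3316 ± 590 CPM, a log2 ratio of 4.41 ± 0.43 (SD, n = 6), and miR-30e had 4.46 ± 0.38. For miR-30d the 3p arm had 59.0 ± 17.6 CPM and the log2 ratio was 9.48 ± 1.06, from 8.58 to 11.35. The lowest ratio of miR-30d lay above the highest of miR-30a and miR-30e, 5.17 and 5.08.

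Other leading hairpins with the 5p arm higher were miR-21a at a log2 ratio of 8.52 ± 0.84, miR-10a at 6.51 ± 0.34, miR-10b at 7.54 ± 0.31, let-7b at 7.04 ± 0.30, let-7g at 9.47 ± 0.70, miR-192 at 7.18 ± 0.44 and miR-26b at 8.99 ± 0.38. The 3p arm was higher in miR-143 at −7.66 ± 0.39, miR-29a at −9.42 ± 0.79, miR-200a at −7.05 ± 0.52, miR-200b at −6.35 ± 0.25, miR-27b at −8.84 ± 0.45, miR-378a at −4.84 ± 0.26 and miR-22 at −5.22 ± 0.51. Each of these 14 had its sign in 6 of 6 libraries, with an adjusted p of 0.0355 in the exact permutation test. The order of size between them is close to the SD for several neighbours, such as miR-192 and let-7b.

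In the most one-sided hairpins the minor arm was a very small part of the counts, so counts summed over the 6 libraries are given. The 5p arm of miR-200c had 0 counts in all 6 libraries, against 52249 counts of the 3p arm. The 3p arm of miR-100 had 6 counts in all against 297446 of the 5p arm, and the 5p arm of miR-23a 24 counts against 274080 of the 3p arm. For miR-203 the 5p arm had 72 counts against 45201, for miR-222 81 against 47655 and for miR-23b 281 against 376812. On the 5p side, miR-191 had 193 counts of its 3p arm against 273980, miR-99a 565 against 297446 and let-7g 1078 against 669409. For miR-200c, miR-100, miR-23a, miR-203 and miR-222, whose minor arm had 0 counts in at least 1 library, the size of the ratio depends on the 0.5 added. The 5p arms of miR-100 and miR-99a carry identical values in every library. How one-sided each of these hairpins is therefore cannot be told from this table.

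Few abundant hairpins kept both arms at like levels. The ratio nearest 1 at this level was that of miR-322, the mouse counterpart of human miR-424 and a member of the miR-15 and miR-16 seed group through its 5p arm. Its 5p arm had 571, 166, 406, 725, 494 and 914 CPM in controls 1 to 6 and its 3p arm 640, 645, 781, 565, 599 and 540 CPM. The 5p arm was the higher one in controls 4 and 6 and the lower one in the other 4, with a mean log2 ratio of −0.37 ± 0.97 (exact permutation p = 0.4375, adjusted p = 0.453), and of −0.05 ± 0.65 without control 2. The 3p arm ranged 1.44-fold over the libraries and the 5p arm 5.51-fold. The GC content of the 5p arm shown above is 40.9% and that of the 3p arm 47.6%.

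Next in evenness were miR-423 at −1.06 ± 0.27, the endothelial miR-126a at −1.13 ± 0.74, miR-199a at −1.38 ± 0.41 and miR-151 at 1.48 ± 0.59, each with one sign in 6 of 6 libraries (adjusted p = 0.0355, exact permutation test). The 5p arm of miR-126a had 1763 CPM in control 2 and 6044 to 11643 CPM in the other 5, while its 3p arm had 10435 and 14130 to 18705 CPM. The log2 ratio was −2.57 in control 2 and −1.23 to −0.64 elsewhere, with a mean of −0.85 ± 0.26 over the other 5. For miR-199a the 5p arm stands on 2 entries and the 3p arm on 3, so its ratio depends on the 1-entry reading.

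Another 5 hairpins of at least 100 CPM had no arm that was higher in every library: miR-193a, miR-205, miR-700, miR-582 and miR-330. The ratio of miR-582 averaged 0.00 ± 0.67 and that of miR-700 0.12 ± 0.30. For miR-193a the 3p arm was higher in 5 of 6 libraries at −0.74 ± 0.51, and for miR-330 likewise at −0.66 ± 0.54 (exact permutation p = 0.0625 for each, adjusted p = 0.0679). In miR-205 the 5p arm had 10223 counts and the 3p arm 10 over the 6 libraries, and control 6 had no count of either.

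**Figure D3:**
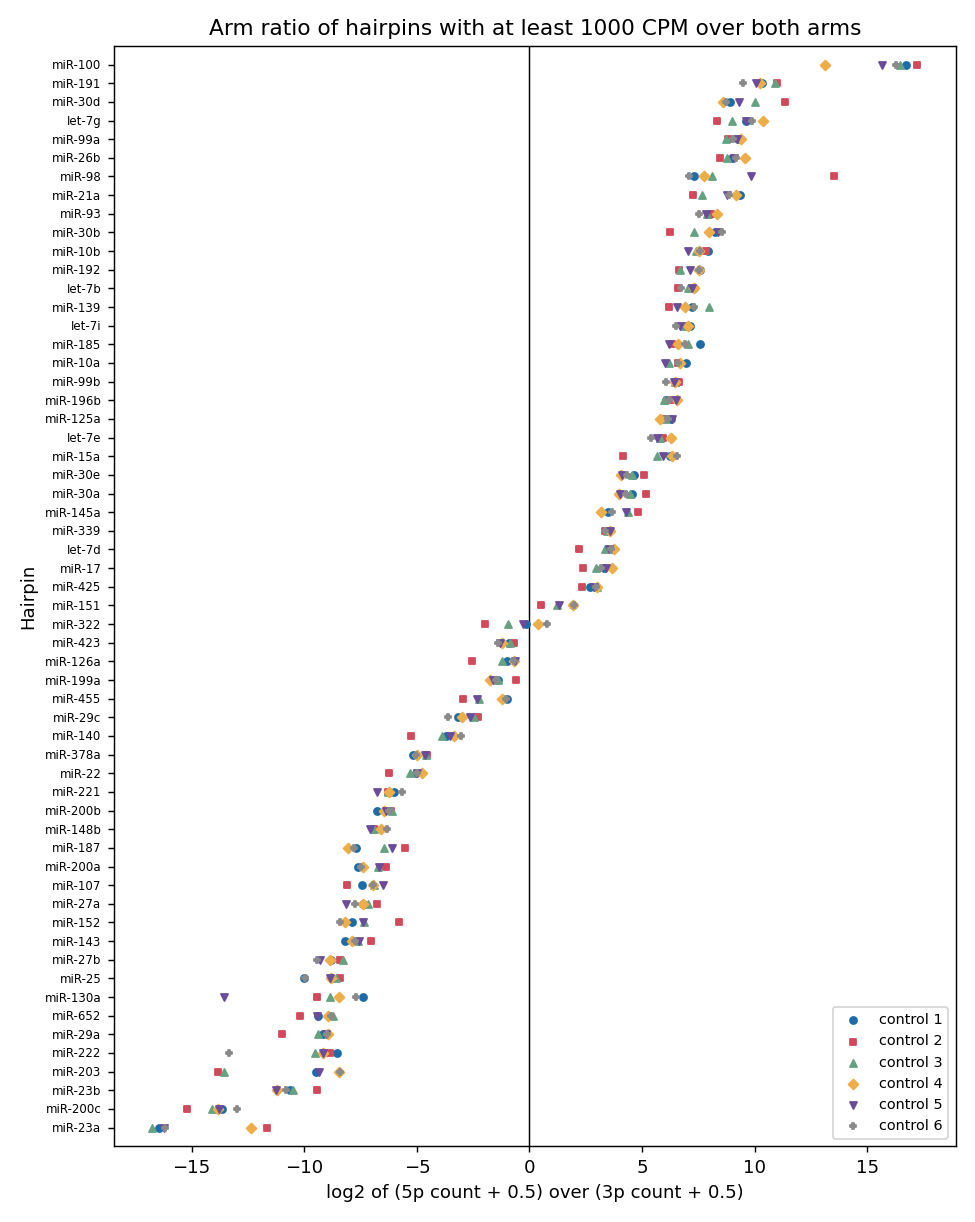
The log2 ratio of 5p over 3p counts, with 0.5 added to each, for the 58 hairpins with at least 1000 CPM over both arms, 1 point per control library. Points lie on one side of 0 for every hairpin but miR-322, and the points farthest out belong to hairpins whose minor arm had few or no counts, such as miR-100, miR-200c and miR-23a. The 5p values of miR-100 are identical to those of miR-99a.

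First bases differed between the arms that built up and those that did not. Argonaute proteins are known to hold the first base of the guide strand in a pocket that favours U and A. Among names with a RefSeq sequence, 78.0% ± 0.806 of the reads began with U, from 77.2% to 79.4% over the 6 libraries, 13.5% ± 0.633 with A, 7.97% ± 0.435 with C and 0.602% ± 0.0638 with G. By name, unweighted by reads, 40.9% of the 582 began with U. In the 129 hairpins that passed and have both sequences, 55.0% of the higher arms and 18.6% of the lower arms began with U, and 14.0% and 35.7% with C. The hairpins were chosen by arm ratio and not by base, and no test was made, since members of a family share their sequence.

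By seed, 489 different seeds stood among the 582 names, and the 10 leading seeds held 60.7% ± 1.40 of the reads. The seed of let-7, GAGGUAG, held 17.0% ± 2.19 over 10 names, and that of miR-30a-5p, miR-30c-5p and miR-30e-5p, GUAAACA, 15.3% ± 1.23. Of the 20 leading names, 17 had a sequence, and miR-143-3p, miR-30d-5p and miR-378a-3p had none. Nor had miR-30b-5p. The reads of such names count under no seed, so the shares and the order of seeds hold for matched names only. The list of the miR-30 family, which includes miR-30b-5p and miR-30d-5p, held 20.9% of the reads. The miR-10 seed, ACCCUGU, held 5.96%, and the miR-26 seed, UCAAGUA, 4.90%. The seed of miR-21a-5p, AGCUUAU, held 4.03% ± 1.67 with a range of 1.69% to 5.96%. The seeds of miR-200b-3p and miR-200a-3p, AAUACUG and AACACUG, held 2.42% each.

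Spread between the control libraries was larger than counting error for nearly every miRNA. For the 343 names of at least 10 CPM the median CV was 29.8%, where counting alone would give a median of 3.92%, and the observed CV lay above that of counting in 342 of 343. Without control 2 the median CV was 25.5%. The median CV fell with level, from 37.8% at 10 to 100 CPM to 28.5% at 100 to 1000 CPM, 25.5% at 1000 to 10000 CPM and 17.9% above. Intervals from counting cover counting error only, since reads without molecular identifiers are not independent molecules.

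The steadiest names of at least 100 CPM were miR-1843a-5p, with 188 to 206 CPM and a CV of 3.93% (3.64% from counting), miR-29a-3p at 4.48% and miR-26a-5p at 5.09%. Then followed miR-27a-3p at 6.81%, miR-1843b-5p at 6.90%, miR-151-5p at 6.93%, miR-1839-5p at 8.02%, miR-25-3p at 8.52%, miR-24-3p at 9.21% and miR-20a-5p at 9.50%. For miR-29a-3p the levels were 26850, 26570, 26818, 26703, 29563 and 28470 CPM in controls 1 to 6, a 1.11-fold range. Both miR-29a-3p and miR-26a-5p stood in the first 20 by level, and no other of the 10 steadiest did.

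The least steady was miR-205-5p, known from urothelium and other stratified epithelia. It had 196, 855, 82.5, 1098, 6.01 and 0 CPM in controls 1 to 6, a CV of 128%. A count of 0 in control 6 was taken to allow up to 3 counts, or 0.891 CPM. On that bound, which covers counting error only, control 4 was at least 1232-fold higher than control 6. Controls 2 and 4 were high, controls 1 and 3 intermediate, and controls 5 and 6 at or near 0. The level of miR-148a-3p, which represses the DNA methyltransferase Dnmt1, was 267 to 860 CPM in 5 libraries and 2159 CPM in control 4, a CV of 89.98%, or 46.6% without control 4. The hypoxia-induced miR-210-3p had 121 to 201 CPM in 5 libraries and 469 CPM in control 2, a CV of 64.4%, or 25.4% without control 2.

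The other names among the 10 of highest CV were miR-1a-3p at 90.5% (22.3% without control 4), the leukocyte miR-142a-3p at 60.6%, mir-3470a-p3, a hairpin region without a mature name, at 60.5%, miR-744-5p at 59.8%, miR-423-5p at 59.7%, miR-331-3p at 59.1% (34.6% without control 2) and the erythroid miR-144-3p at 58.1%. Control 2 was the highest library for miR-210-3p, mir-3470a-p3, miR-744-5p, miR-423-5p and miR-331-3p, and the lowest for miR-142a-3p, miR-1a-3p and miR-144-3p. Control 4 was the highest for miR-205-5p, miR-1a-3p and miR-148a-3p. In all, 15 names of at least 10 CPM were over 2-fold higher in 1 library than in the next, 9 of them in control 4, 3 in control 2, 2 in control 6 and 1 in control 5.

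**Figure D4:**
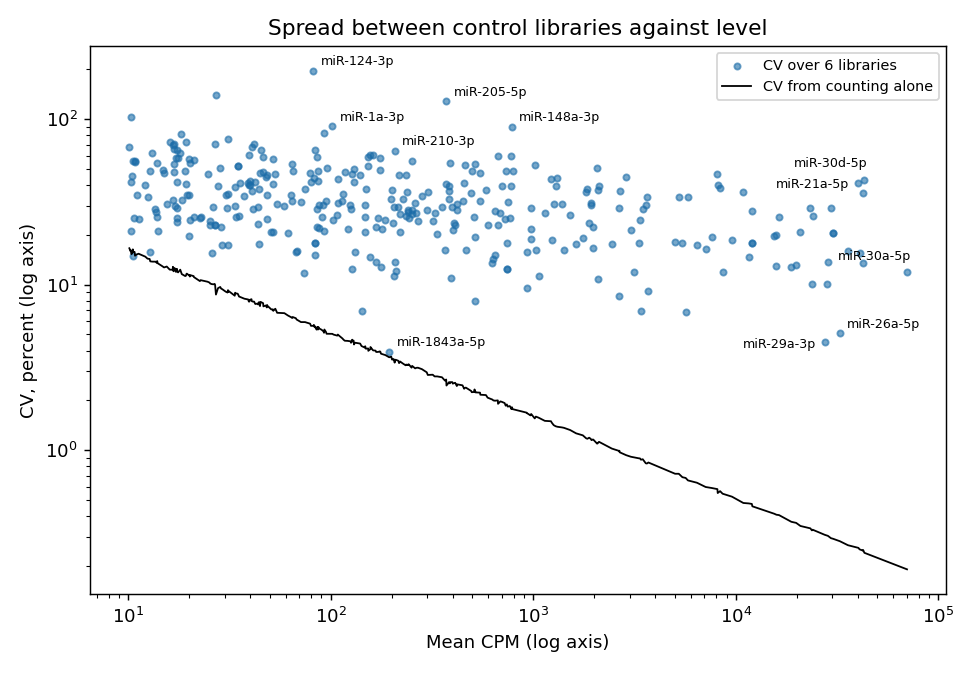
CV over the 6 control libraries in percent against mean CPM (both log axes) for 343 miRNA names of at least 10 CPM, with the CV that counting alone would give as a line. Points lie above the line but for 1 name, miR-29a-3p and miR-26a-5p lie low among abundant names, and miR-30d-5p and miR-21a-5p lie high.

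Control 2 stood apart from the other 5 libraries. The median Spearman correlation of a library with the others, across names of at least 10 CPM, was 0.934 for control 2, 0.951 for control 4 and 0.963 to 0.968 for the other 4. These are correlations across names, which are not independent replicates. Of 201 names of at least 100 CPM, 46 in control 2 were over 2-fold from the median of the other 5 libraries, 28 higher and 18 lower. The other libraries had 2 to 14 such names. Control 2 was also the most deeply sequenced library.

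The names that were high and low in control 2 differed in base composition. The 28 higher names had a median GC content of 59.1% (22 with a sequence, 48% to 66.7%) and the 18 lower names one of 36.4% (16 with a sequence, 22.7% to 45.5%). The AU-rich miR-190a-5p, at 22.7% GC, had 76.7 CPM in control 2 and 329 to 859 CPM in the other 5, a log2 difference from their median of −2.97. The GC-rich miR-744-5p, at 63.6% GC, had 1603 CPM in control 2 and 328 to 938 CPM elsewhere, a difference of 1.71. Both sequences are shown above. Likewise miR-32-5p differed by −2.24 and miR-423-5p by 1.62.

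The other libraries leaned one way or the other as well. Across 172 names of at least 100 CPM with a sequence, the Spearman correlation of GC content with the log2 difference from the median of the other libraries was 0.70 in control 2, 0.57 in control 3 and 0.26 in control 5, and −0.48, −0.53 and −0.53 in controls 1, 4 and 6. These are descriptions over names that share a library. Each library is set against the others, so for every name some libraries lie above and others below by construction. The 6 correlations are therefore not separate results. In control 2 the median log2 difference was −0.88 for 32 names under 40% GC, −0.12 for 71 names from 40% to 50% and 0.72 for 69 names of at least 50%. Names of at least 50% GC held 14.0% of the reads in control 2 and 8.54% to 11.0% in the other 5, and names under 40% GC 14.5% against 17.5% to 20.2%. These values move with several results above, including the low miR-21a-5p, let-7f-5p and miR-322-5p of control 2, whose sequences are at most 40.9% GC. The part of base composition in those results was not tested, and single names went the other way. At 36.4% GC, the log2 difference in control 2 was 0.29 for miR-200b-3p and 0.47 for let-7a-5p.

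**Figure D5:**
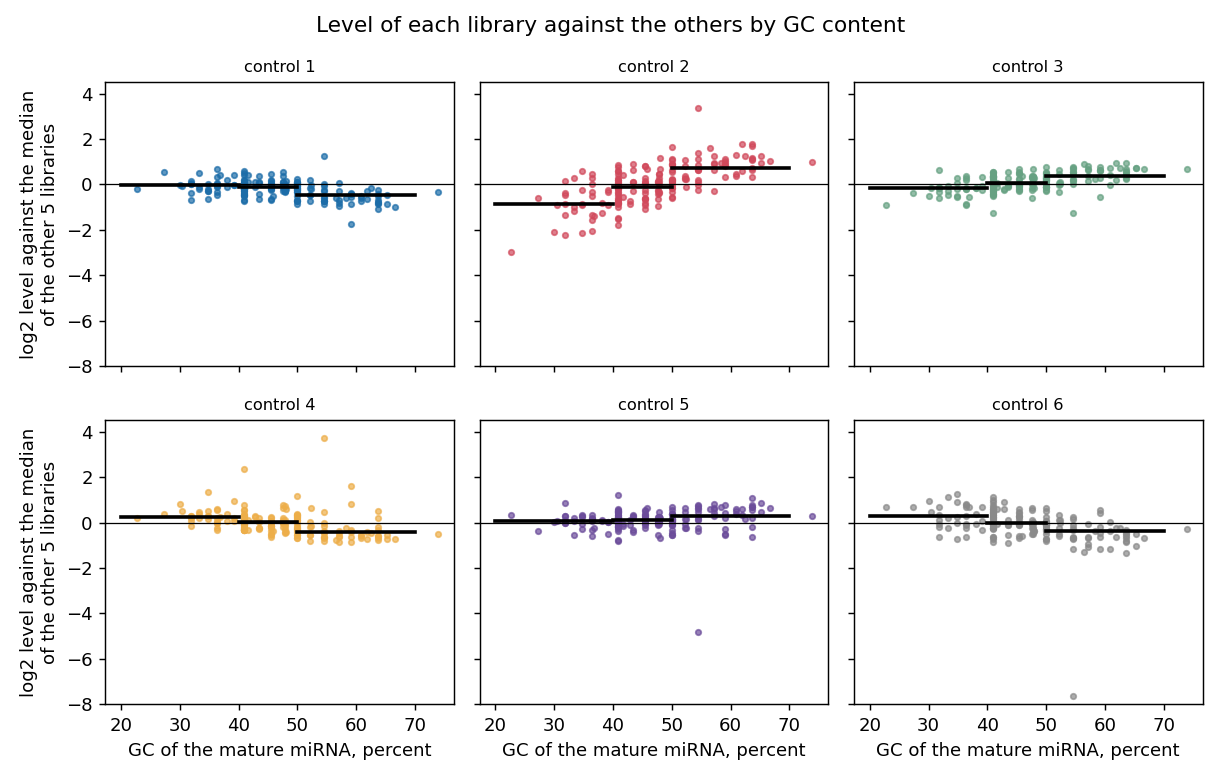
Difference of each control library from the median of the other 5, in log2 units, against the GC content of the mature sequence in percent, for 172 miRNA names of at least 100 CPM, 1 panel per library, with the median of 3 GC classes as bars. Control 2 rises with GC from −0.88 to 0.72, control 3 rises less, controls 1, 4 and 6 fall, and the lowest points of controls 5 and 6 are miR-205-5p.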

How the data were processed

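Per the labels, total RNA of mouse kidney was extracted with Trizol and made into TruSeq small RNA libraries that were run on a HiSeq, and ACGT101-miR was used by the submitters to filter reads. Trimmomatic 0.32, BWA, SAMtools and edgeR stand in the submitters' processing notes without a role. The sources used here give neither a genome build nor a miRNA database release. The deposited raw columns were taken as estimated counts, since 84.3% of the kept values above 0 were whole. The deposited normalized columns, a signal equal to the raw value times 1 factor per library, served as an alternative only.

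The entry of highest summed count over the 6 control libraries was kept for each mouse name, the prefix of the name being left out here, and scaled to CPM of the kept total. Means and SDs are over 6 libraries. Arms were compared by an exact 2-sided sign-flip permutation test with Benjamini-Hochberg adjustment, threshold 0.05, checked on simulated data. Other results are descriptions. Work was done in Python 3.11.15 (numpy 2.4.6, pandas 2.3.3), with edgeR 4.0.16 in R 4.3.3 for TMM and RLE totals. Seeds and positions are from RefSeq, host genes from GENCODE M21.

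Members and lists were chosen with earlier results of these data known, the lists from general knowledge. Named were the 20 leading names, up to 4 leading members per list, the 10 highest and 10 lowest CVs at 100 CPM or more, the 20 leading hairpins, the 5 most even and 5 most one-sided in each direction at 1000 CPM or more, and hairpins of 100 CPM or more whose higher arm changed. Names far higher in 1 library, those outlying in control 2, names in pairs of equal values and single list members beyond these were chosen after their values were seen. Alternatives covered totals, entries per name, normalized columns, minimum counts, the count added, seed families and each library left out.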

Additional observations from a re-analysis of the deposited data

Results flagged for a closer look

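In 11 of 116 values checked, 1 library lay far from the other 5 by the 95% critical value of Dixon for 6 libraries, which sets the gap to the nearest library against the whole range. Chance gives about 1 such library in 20 groups, a rate that does not hold for the 10 names chosen for their high CV, among them miR-210-3p, miR-148a-3p and miR-1a-3p. Nor are the 116 values separate, since lists hold names that were also checked singly. For example, miR-1a-3p made up 60.5% of the striated muscle list. The 11 in 116 can therefore not be set against that rate. Control 2 was the distant library in 5 of the 11, control 4 in 4, and controls 5 and 6 in 1 each.

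In control 4 the muscle miRNA miR-1a-3p stood at 288 CPM with the next library at 84.8 CPM, and miR-148a-3p at 2159 CPM with the next at 860 CPM. Also in control 4, the striated muscle list held 0.0387% of the reads (next 0.0119%) and the nerve, adrenal and islet list 0.167% (next 0.0923%). The hypoxia-induced miR-210-3p stood at 469 CPM in control 2, with the next library at 201 CPM. The liver miRNA miR-122-5p, the only counted name of its list, held 0.00631% of the reads in control 5, with the next library at 0.00276%.

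Arm ratios of 5 hairpins had a distant library. In control 2 the log2 of 5p over 3p was −2.57 for miR-126a (nearest other library −1.23), −0.59 for miR-199a (nearest −1.40), −6.22 for miR-22 (nearest −5.29) and −10.99 for miR-29a (nearest −9.39). In control 6 it was −13.33 for miR-222 (nearest −9.50), where the 5p arm had 0 counts and the value is set by the 0.5 added and the count of the 3p arm.

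Entries named for other species, which are outside the 735 names, held 1.65% of all counts on average, from 1.04% in control 2 to 2.08% in control 6. Among them an entry carrying the rat name of miR-101b-3p alone held 0.690% of all counts, and one carrying the rat name of miR-378b 0.0951%.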

How the results depend on the processing

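The 124 results were recomputed under 21 other settings. With every entry in the denominator, the 10 leading names held 34.8% of the reads, the miR-30 family 17.2% and let-7 with miR-98 14.0%. With entries of a name summed, the 10 leading names held 47.1%, let-7 with miR-98 20.3%, and reads that begin with U 80.6%. Detection at 10 counts gave 433 names per library, and the median CV with no minimum level was 48.6%. Leaving out each library in turn gave 0 hairpins that passed for either arm, adjusted or not, in the exact permutation test, because 5 libraries allow no p below 0.0625. The mean log2 arm ratio of miR-582, 0.00 with all 6, ran from −0.15 without control 6 to 0.23 without control 2, lay below 0 without control 1, 4, 5 or 6, and passed in no setting. For single names, hairpins and lists outside the main summaries, 1178 recomputed values counted as unchanged. For levels and shares this means a move of less than 1 SD, and for arm ratios the same sign and call. How far an arm ratio moved was not checked. Levels or shares moved by more in 72 cases. With 5 libraries 174 arm calls were lost, and 4 arm ratios changed sign, all of them miR-582. The median CV ranged from 25.5% to 32.4% over the libraries left out. Seeds gave a family share for 19 of the 24 families, and none for the miR-30 family. No paired analysis was possible because no groups were compared, so replicate numbers had nothing to pair across groups. The arm test itself pairs both arms within a library. Counting depth limits mainly the minor arms and names under 10 CPM.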
